A study of Sus scrofa with 20 samples.

Results

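The 7 small leucine-rich proteoglycans of the dermis described here are decorin (DCN), lumican (LUM), osteoglycin (OGN), biglycan (BGN), fibromodulin (FMOD), asporin (ASPN) and the proline and arginine rich end leucine rich repeat protein (PRELP). They were chosen by name, and all 7 were found among the 19280 gene rows of the deposited table, as ENSSSCG00000000915 for DCN, ENSSSCG00000000916 for LUM, ENSSSCG00000034607 for OGN, ENSSSCG00000012766 for BGN, ENSSSCG00000015270 for FMOD, ENSSSCG00000008072 for ASPN and ENSSSCG00000015271 for PRELP. All 7 passed the filter on low counts. RNA was sequenced from 4 mm biopsies of volar foot (plantar), snout, dorsal foot and flank (trunk) skin of 5 wild-type female Yorkshire pigs, which gave 20 libraries, 1 for each site of each pig. The question of the series was how gene expression differs between plantar skin and the other sites, and each biopsy holds epidermis, dermis and whatever lay beneath them.

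Small leucine-rich proteoglycans are secreted proteins whose curved leucine-rich repeat domain binds collagen, and they set the width and spacing of collagen fibrils in the dermis, tendon and cornea. Decorin and biglycan carry chondroitin or dermatan sulfate chains, lumican, fibromodulin and osteoglycin can carry keratan sulfate, and asporin, a relative of decorin, carries no such chain. Several of them also bind growth factors such as TGF-beta, and fibroblasts are their main source in skin.

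The library numbers in the labels fall into 2 separate ranges. The second set is the 8 libraries of the pigs aged 5 and 6 months, with 2 libraries for each of flank, volar, snout and dorsal. The first set is the 12 libraries of the pigs aged 4, 7 and 8 months, with 3 libraries for each of volar, snout, dorsal and flank. The site labels of the second set go against its expression. Over the 2000 most variable genes outside the proteoglycan and matrix lists, the second-set libraries labelled flank were nearest to first-set volar (Pearson r of 0.871 in the 6-month and 0.874 in the 5-month pig), those labelled volar to snout (0.825 and 0.777), those labelled snout to dorsal (0.861 and 0.824), and those labelled dorsal to flank (0.808 and 0.841). For the libraries labelled dorsal, first-set dorsal came next (0.752 and 0.631), whereas second-set flank, volar and snout libraries had r of at most 0.0377 with the first-set site of their own label. EN1, a transcription factor of ventral limb skin, averaged 17.3 CPM in second-set libraries labelled flank and 11.9 CPM in first-set volar libraries, and at most 2.37 CPM in any other group. ALX1, a transcription factor of the face, averaged 19.5 CPM in second-set libraries labelled volar and 18.5 CPM in first-set snout libraries, and HOXC10, a gene of the trunk and limb, had no count in either of those groups. No library was moved or renamed here. Each set was compared within itself under its own labels, and each second-set comparison stands beside the first-set comparison that this likeness gives. When all 20 libraries were taken as labelled, 0 of 42 member comparisons passed edgeR's quasi-likelihood test with Benjamini-Hochberg adjustment (9 at an unadjusted p under 0.05), and 0% of all genes passed in any of the 6 pairs of sites.

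Library totals ran from 34077861 to 66906489 counts. Levels are given as CPM, counts relative to the library total, scaled by the trimmed mean of M values (TMM), so a level can be compared between libraries for 1 gene but not between genes. Differences are log2 fold changes ± standard error from 1 edgeR fit to 8 groups (site by set), and a member is said to have passed where its Benjamini-Hochberg adjusted p over 15735 genes was under 0.05. A second scaling, on the geometric mean of 11 fibroblast markers, gives each difference relative to those markers. Whether they track fibroblast RNA alone was not tested. Values under this scaling are given for each member difference that passed under TMM scaling and then turned direction. Differences that did not pass could turn too, and not all are listed. Among these, in flank minus snout of the second set, FMOD turned from -1.16 to 1.10, ASPN from -0.24 to 2.09 and PRELP from -1.05 to 1.41. The labels name separate pigs, so the spread is between pigs. In bulk skin, fewer fibroblasts and less RNA per fibroblast cannot be told apart.

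Under TMM scaling 5 of the 7 members differed among sites in each set, the same 5 in both: DCN, LUM, OGN, BGN and FMOD. Adjusted p-values of the edgeR test for any difference among sites were 1.41e-05 for DCN, 0.000207 for OGN, 0.00125 for FMOD, 0.00763 for LUM and 0.00964 for BGN in the second set, where 45.8% of all genes passed. In the first set they were 0.000127 for DCN, 0.000797 for FMOD, 0.00649 for BGN, 0.00804 for LUM and 0.00919 for OGN, where 35.7% of all genes passed. ASPN (0.653 in the second set and 0.325 in the first) and PRELP (0.316 and 0.889) did not pass. With scaling on fibroblast markers LUM no longer passed in either set (adjusted p = 0.0592 in the second and 0.762 in the first, edgeR), nor DCN in the second (0.0574), while ASPN passed in both (1.48e-06 and 0.00710), beside 85.3% and 65.7% of all genes. Under TMM scaling DCN, LUM and OGN had their lowest site mean in second-set libraries labelled flank and in first-set volar libraries, but LUM was not lowest there in the second set under scaling on fibroblast markers. Also under TMM scaling BGN and FMOD had their highest site mean in second-set libraries labelled volar and in first-set snout libraries, but under scaling on fibroblast markers BGN was 0.14 higher on the log2 scale in second-set flank than in second-set volar. With the 8-month pig left out, 3 members passed in the first set in place of 5.

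**Figure D1:**
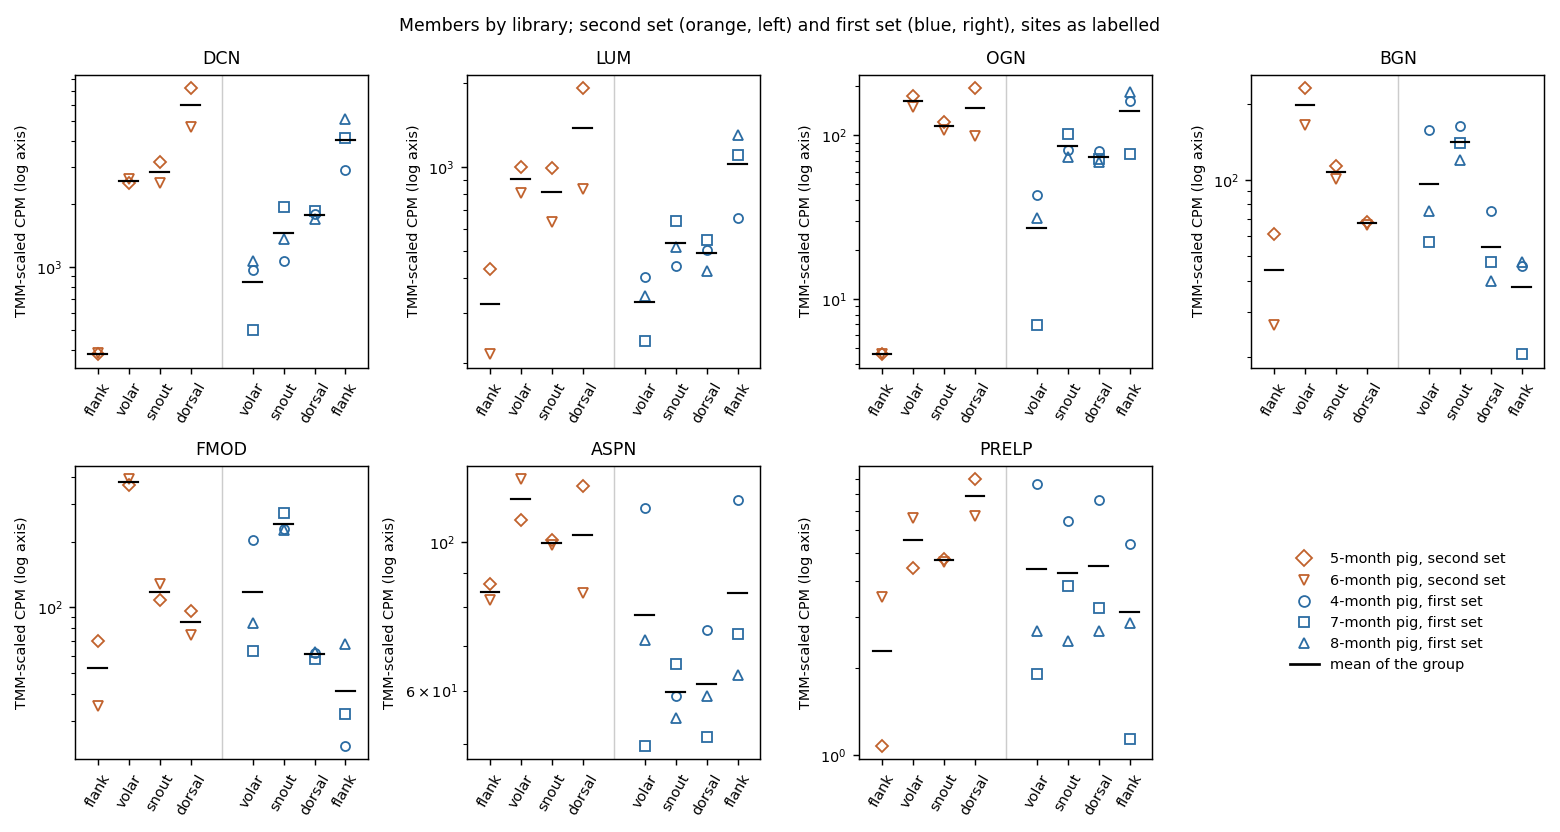
TMM-scaled CPM of each member (vertical axis, log scale) in every library by labelled site, with the second set in orange on the left and the first set in blue on the right; marker shapes stand for pigs and bars for group means. DCN, LUM and OGN are lowest in second-set flank and first-set volar libraries, while FMOD reaches 389 CPM in second-set volar and 271 CPM in first-set snout libraries.

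Decorin, the most studied member, binds collagen I fibrils, and mice without it have fragile skin. In the second set DCN stood at 380 and 387 CPM in the libraries labelled flank, 2516 and 2623 CPM in those labelled volar, 3174 and 2519 CPM in those labelled snout, and 7216 and 4690 CPM in those labelled dorsal (5-month pig first). The flank libraries lay below all 6 others, and the dorsal libraries above them. DCN was lower in flank than in dorsal (log2 fold change -3.95 ± 0.39, adjusted p = 2.81e-06, edgeR), in snout (-2.89 ± 0.37) and in volar (-2.74 ± 0.37), and all 3 differences passed. Scaled on fibroblast markers, flank minus snout was -0.54 (adjusted p = 0.163, edgeR) and flank minus volar -0.37 (0.338), and neither passed, beside 79.5% and 81.9% of all genes. Volar minus dorsal in that set was -1.21 ± 0.35 (adjusted p = 0.0380), a call that was lost without either volar library (-1.26 without the 6-month and -1.19 without the 5-month library) or without the 5-month dorsal library (-0.87). It was also lost without the 8-month pig of the first set (adjusted p = 0.0517, edgeR) or under scaling on fibroblast markers (-0.68, adjusted p = 0.277, edgeR).

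In the first set DCN stood at 964, 496 and 1069 CPM in volar, 1069, 1932 and 1357 CPM in snout, 1798, 1851 and 1688 CPM in dorsal, and 2909, 4128 and 5098 CPM in flank libraries (4-, 7- and 8-month pigs). Flank libraries lay above all others, and volar libraries did not overlap dorsal ones. DCN passed in volar minus flank (-2.26 ± 0.29, adjusted p = 4.3e-05), snout minus flank (-1.48 ± 0.29, 0.00277) and volar minus dorsal (-1.08 ± 0.28, 0.0108) by edgeR's quasi-likelihood test. Volar minus snout (-0.79 ± 0.28, adjusted p = 0.0746) and dorsal minus flank (-1.19 ± 0.28, adjusted p = 0.106) did not pass in that edgeR fit, although every dorsal library lay below every flank library. Without the 7-month pig volar minus dorsal was -0.80 (adjusted p = 0.0741), and without the 8-month pig snout minus flank was -1.25 (adjusted p = 0.0518). Under scaling on fibroblast markers volar minus dorsal was -0.60 (adjusted p = 0.114, edgeR), beside 29.5% of all genes passing, and snout minus flank was -0.68 (adjusted p = 0.0632, edgeR).

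Lumican binds the same collagen fibrils, keeps the cornea clear and in mice is needed for normal skin strength. LUM stood in the second set at 433 and 214 CPM in flank, 996 and 808 CPM in volar, 987 and 636 CPM in snout, and 1915 and 833 CPM in dorsal libraries (5-month pig first). In every one of these sites the 5-month pig had the higher level. Under TMM scaling LUM was lower in flank than in dorsal (-2.09 ± 0.43), in snout (-1.33 ± 0.42) and in volar (-1.48 ± 0.42), with edgeR adjusted p-values of 0.00116, 0.0196 and 0.0137, but under scaling on fibroblast markers these 3 differences stood at 0.80, 0.94 and 0.83. Without the 5-month dorsal library flank minus dorsal was -1.37, and without the 5-month flank library the 3 differences were -2.68, -1.92 and -2.08, all still passing. The flank minus snout call was lost without the 6-month flank (-0.91) or the 5-month snout library (-0.97) or in a fit of the second set alone (adjusted p = 0.0627, edgeR). The flank minus volar call was lost without the 6-month flank (-1.06) or the 5-month volar library (-1.33).

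LUM stood in the first set at 403, 240 and 346 CPM in volar, 444, 640 and 517 CPM in snout, 506, 547 and 425 CPM in dorsal, and 660, 1099 and 1305 CPM in flank libraries (4-, 7- and 8-month pigs). Volar libraries lay below all others, and flank libraries above them. Only volar minus flank passed (-1.63 ± 0.35, adjusted p = 0.00204, edgeR), and under scaling on fibroblast markers it did not (-0.30). Snout minus flank (-0.94 ± 0.34, adjusted p = 0.0736) did not pass in the edgeR fit, but passed with the pig as a block (-0.93, adjusted p = 0.0292).

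Osteoglycin, also called mimecan, was first purified from bone and is made by fibroblasts of many connective tissues. OGN stood in the second set at 4.57 CPM in both flank libraries, against 175 and 149 CPM in volar, 120 and 108 CPM in snout, and 195 and 99.3 CPM in dorsal libraries (5-month pig first). The ratio of the highest to the lowest site mean was 35.4 there and 5.20 in the first set, against 15.5 and 4.80 for DCN. OGN passed in flank minus volar (-5.15 ± 0.68), flank minus dorsal (-5.01 ± 0.68) and flank minus snout (-4.64 ± 0.67), with edgeR adjusted p-values of 8.6e-05, 4.43e-05 and 9.07e-05, and in no comparison among the other 3 second-set sites.

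OGN stood in the first set at 42.9, 6.87 and 31.2 CPM in volar, 81.7, 102 and 73.8 CPM in snout, 80.1, 71.3 and 68.2 CPM in dorsal, and 161, 76.5 and 183 CPM in flank libraries (4-, 7- and 8-month pigs). Every volar library lay below every other library, while the 7-month flank library lay among the snout and dorsal ones. Volar differed from flank (-2.38 ± 0.48, adjusted p = 0.00162), snout (-1.67 ± 0.47, 0.0274) and dorsal (-1.44 ± 0.47, 0.0344) by edgeR's quasi-likelihood test. The volar minus snout call was lost without the 8-month volar (adjusted p = 0.0569) or the 7-month snout library (0.0787). The volar minus dorsal call was lost without the 8-month volar library (0.0601) or any 1 of the 3 dorsal libraries (0.0546 to 0.0774), each by edgeR. Neither passed without the 8-month pig (adjusted p = 0.102 and 0.112, edgeR) or in a fit of the first set alone (0.0648 and 0.0687).

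Biglycan and fibromodulin had their highest levels at other sites. Biglycan is the closest relative of decorin, carries more glycosaminoglycan chains than decorin, and signals through Toll-like receptors when released from the matrix. BGN stood in the second set at 60.9 and 26.8 CPM in flank, 231 and 166 CPM in volar, 113 and 101 CPM in snout, and 68.2 and 66.5 CPM in dorsal libraries (5-month pig first). Volar libraries lay above all others, snout libraries next, and flank libraries below the remaining sites. BGN was lower in flank than in volar (-2.18 ± 0.51, adjusted p = 0.00424, edgeR), although this stood at 0.14 under scaling on fibroblast markers, and was -1.71 (adjusted p = 0.0564) without the 6-month and -2.89 without the 5-month flank library. The flank minus snout difference (-1.29 ± 0.49, adjusted p = 0.0481, edgeR) held in 5 of 20 removals of 1 library. It was lost with median-of-ratios scaling, with no count filter and without the 8-month pig (adjusted p = 0.0510, 0.0523 and 0.0737, edgeR). This difference was -0.82 without the 6-month and -2.01 without the 5-month flank library, and stood at 0.96 under scaling on fibroblast markers. Where it was lost without a library from outside second-set flank and snout, its value stayed at -1.28 to -1.29. Volar minus dorsal, at 1.56 ± 0.50, did not pass (adjusted p = 0.0585, edgeR), but passed with the pig as a block (1.52, adjusted p = 0.0171).

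BGN stood in the first set at 158, 57.1 and 75.2 CPM in volar, 163, 140 and 120 CPM in snout, 75.4, 47.5 and 39.8 CPM in dorsal, and 45.7, 20.4 and 47.2 CPM in flank libraries (4-, 7- and 8-month pigs). Snout libraries lay above every dorsal and flank library, and volar libraries above every flank library. BGN passed in snout minus flank (1.90 ± 0.41, adjusted p = 0.00568), snout minus dorsal (1.38 ± 0.40, 0.0388) and volar minus flank (1.36 ± 0.40, 0.0166) by edgeR's quasi-likelihood test. Volar minus flank was 0.81 (adjusted p = 0.116) without the 4-month volar library and 1.04 (0.0687) without the 7-month flank library in edgeR fits. Snout minus dorsal held in 10 of 20 removals of 1 library, with values of 1.18 to 1.48 where it was lost. Where it was lost without a second-set library, its value stayed at 1.37. The snout minus dorsal call also did not pass without the 7-month or the 8-month pig or in a fit of the first set alone (adjusted p = 0.127, 0.196 and 0.0684, edgeR), and volar minus flank not without the 4-month pig (0.0970).

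Fibromodulin binds collagen at the site lumican uses, is abundant in tendon and cartilage, and in mice its loss leaves tendons with thin, irregular fibrils. FMOD stood in the second set at 70.2 and 35.3 CPM in flank, 366 and 389 CPM in volar, 108 and 129 CPM in snout, and 96.4 and 74.3 CPM in dorsal libraries (5-month pig first). The volar libraries lay above all others. FMOD passed in flank minus volar (-2.84 ± 0.53, adjusted p = 0.00104) and volar minus dorsal (2.14 ± 0.52, 0.0177) by edgeR, and volar minus snout (1.67 ± 0.51, 0.0595) did not. Scaled on fibroblast markers, flank minus volar was -0.55 (adjusted p = 0.198, edgeR) and did not pass. The volar minus dorsal call was lost without any 1 of the 4 volar and dorsal libraries, with values of 1.96 to 2.34.

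FMOD stood in the first set at 205, 62.7 and 84.7 CPM in volar, 228, 271 and 228 CPM in snout, 61.9, 58.0 and 62.6 CPM in dorsal, and 23.1, 32.3 and 68.1 CPM in flank libraries (4-, 7- and 8-month pigs). Every snout library lay above every other library, while volar and flank overlapped. The largest difference of a member in that set was FMOD in snout minus flank (2.56 ± 0.43, adjusted p = 0.00101, edgeR). Snout minus dorsal (1.99 ± 0.42, adjusted p = 0.00687) and volar minus flank (1.51 ± 0.42, adjusted p = 0.0109) also passed in the edgeR fit. Without the 4-month volar library, volar minus flank was 0.84 (adjusted p = 0.0850, edgeR), and without the 4-month pig it was 0.54 (0.283). Without the 7-month pig snout minus dorsal was 1.87 (adjusted p = 0.0593, edgeR).

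Asporin, which binds collagen and TGF-beta and is a gene of cartilage and periodontal ligament as well as skin, did not pass in any comparison under TMM scaling. ASPN lay between 82.0 and 124 CPM in all 8 second-set libraries and between 49.6 and 115 CPM in the 12 first-set libraries. Its site means were 84.3 in flank, 116 in volar, 99.9 in snout and 103 CPM in dorsal libraries of the second set, and 77.9 in volar, 59.7 in snout, 61.3 in dorsal and 83.9 CPM in flank libraries of the first. In each set every site's range overlapped that of at least 1 other site. The 95% interval of flank minus dorsal was -0.99 to 0.42 in the second set and that of volar minus flank -0.68 to 0.47 in the first, under TMM scaling. Under scaling on fibroblast markers the same 2 differences stood at 2.61 and 1.14.

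PRELP, which in other mammals anchors basement membranes to collagen by its heparin-binding end, had few counts, from 31 to 511 a library. It lay between 1.08 and 8.99 CPM in the second set and between 1.14 and 8.6 CPM in the first. In each first-set site the 4-month pig had the highest level. No PRELP difference passed in the edgeR fit. The nearest was flank minus dorsal in the second set (-1.78 ± 0.82, adjusted p = 0.0898, edgeR, and 1.22 under scaling on fibroblast markers), which passed with the pig as a block (-1.91, adjusted p = 0.00932), as did the test for any site (adjusted p = 0.0471).

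Counted over the 7 members, the second set gave 3 calls in flank minus dorsal, 4 in flank minus snout, 5 in flank minus volar and 2 in volar minus dorsal, which is 14 of 42 comparisons. Of all genes 45.1%, 41.8%, 36.4% and 10.5% passed in these comparisons, in that order. All calls with flank were lower in flank under TMM scaling, but LUM (3 of 3 calls) and BGN (2 of 2) were not under scaling on fibroblast markers. Of all genes 24.2%, 22.1% and 19.9% passed as lower in these comparisons. Volar minus dorsal had FMOD higher, as 6.53% of all genes were, and DCN lower, as 4% were. None passed in volar minus snout (1 at an unadjusted p under 0.05, and 1 each with DESeq2 and limma-voom) or in snout minus dorsal (1 at an unadjusted p under 0.05, and 0 with DESeq2 and limma-voom), where 7.33% and 0.00636% of all genes passed. The first set gave 5 calls in volar minus flank, 2 in volar minus dorsal, 1 in volar minus snout, 3 in snout minus flank and 2 in snout minus dorsal, which is 13 of 42. Of all genes 35.5%, 26.6%, 15.3%, 16.7% and 11.2% passed there, in that order. Volar minus flank had DCN, LUM and OGN lower (17.3% of all genes) and BGN and FMOD higher (18.2%), volar minus dorsal had DCN and OGN lower (11.1%), and volar minus snout had OGN lower (7.72%). Snout minus flank had BGN and FMOD higher (9.88%) and DCN lower (6.81%), and snout minus dorsal had BGN and FMOD higher (7.02%). In dorsal minus flank none passed by edgeR (2 at an unadjusted p under 0.05, 1 with DESeq2 and 0 with limma-voom), beside 0.362% of all genes. Many genes passed in most of these comparisons, and the counts of members are to be read against those shares.

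**Figure D2:**
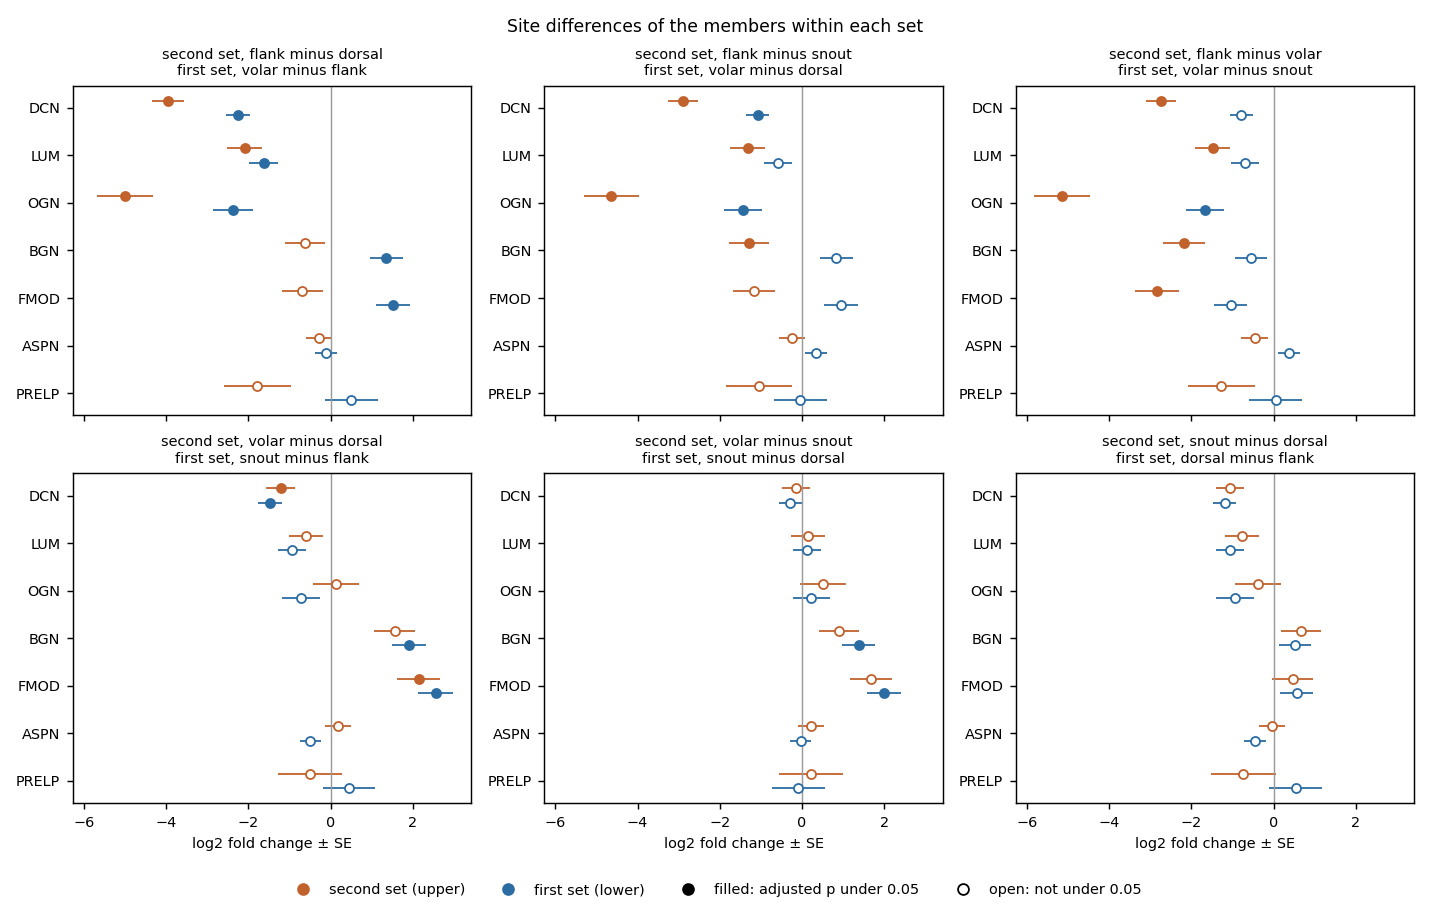
Log2 fold change ± standard error (horizontal axis) of each member in 6 comparisons, with the second set in orange above and the first set in blue below; filled points passed at an adjusted p under 0.05. DCN, LUM and OGN lie left of 0 in the 3 upper comparisons of both sets under TMM scaling, while BGN and FMOD lie right of 0 in volar minus flank of the first set (1.36 and 1.51) and left of 0 in flank minus dorsal of the second (-0.62 and -0.69), which under scaling on fibroblast markers stood at 2.13 and 2.11, and LUM at 0.80.

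The difference between a second-set comparison and the first-set one beside it was tested in the same fit. None of 42 differences passed by edgeR's quasi-likelihood test (13 at an unadjusted p under 0.05), while DESeq2 called 10 and limma-voom 0. Of all genes 0.941%, 0.496% and 0.267% passed for the 3 second-set comparisons with flank and 0% for the other 3. BGN stood at -0.62 in flank minus dorsal of the second set and 1.36 in volar minus flank of the first (difference -1.98 ± 0.63, adjusted p = 0.134, edgeR). FMOD stood at -0.69 and 1.51 in the same comparisons (difference -2.20 ± 0.65, adjusted p = 0.108, edgeR). The largest of the 42 was OGN in flank minus volar of the second set against volar minus snout of the first (-3.48, adjusted p = 0.0648, edgeR). DCN was at -1.96 there (adjusted p = 0.0689, edgeR). DESeq2 called DCN and OGN in each of the 3 pairs with second-set flank, and BGN and FMOD in all of these but flank minus volar. With the pig as a block 1 difference passed, BGN in flank minus snout of the second set against volar minus dorsal of the first (-2.12, adjusted p = 0.0470, edgeR), and without the 7-month volar library 9 passed.

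Levels were also compared directly between the sets, in which set, pigs, age, harvest date and library numbers cannot be told apart. Second-set flank libraries were lower than first-set volar libraries in OGN (-2.56 ± 0.59, adjusted p = 0.0140) and DCN (-1.13 ± 0.33, 0.0348) by edgeR under TMM scaling. Under scaling on fibroblast markers OGN was -0.85 (adjusted p = 0.0497, edgeR) and DCN 0.42 (0.235), and limma-voom did not call OGN (-2.22, adjusted p = 0.166). Beside these 2 members, 12.9% of all genes passed. Neither call held without either second-set flank library or with the 4-month or the 8-month pig left out, and the DCN call was also lost without the 4-month (-1.03) or the 8-month volar library (-0.93). LUM, at -0.03 ± 0.38, and ASPN, at 0.11 ± 0.29, did not pass, but under scaling on fibroblast markers LUM was 1.39 (adjusted p = 0.00170, edgeR) and ASPN 1.66 (0.000580), beside 69.3% of all genes passing. BGN (-1.14), FMOD (-1.15) and PRELP (-0.95) did not pass either, and stood at 0.34, 0.37 and 0.83 under that scaling. The other 3 pairs were second-set volar minus first-set snout, snout minus dorsal and dorsal minus flank, with 0.133%, 0.0826% and 0.133% of all genes passing. In these no member passed by edgeR or by DESeq2 or limma-voom (7 of 21 at an unadjusted p under 0.05). All 21 values lay above 0, from 0.06 to 1.34, under TMM scaling, but not under scaling on fibroblast markers for PRELP in second-set snout minus first-set dorsal (-0.18) and OGN in second-set dorsal minus first-set flank (-0.01).

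Markers of other cell types moved with these differences. The 8 matched keratinocyte markers summed to 514400 to 620900 CPM in second-set flank libraries, against 15670 to 42870 CPM in the other second-set libraries, and to 282900 to 314500 CPM in first-set volar libraries, against 17420 to 43210 CPM in the other first-set libraries. Most of these high sums came from KRT1, which averaged 423500 CPM in second-set flank and 202300 CPM in first-set volar libraries, and at most 13590 CPM in any other group. The 11 matched fibroblast markers, with none at 0 in any group, summed to 942 to 1037 CPM in second-set flank libraries, against 2190 to 4050 CPM in the others, and to 1157 to 2179 CPM in first-set volar libraries, against 1871 to 3879 CPM. Of these 11 markers 9 were lower in flank minus dorsal of the second set and 5 in volar minus flank of the first, and none was higher, beside 24.2% and 17.3% of all genes lower and 20.9% and 18.2% higher. Scaling on those markers sets their geometric mean equal in all libraries, so their direction then follows from the scaling. The 7 matched sweat gland markers summed to 4145 to 5378 CPM in second-set flank libraries, against 62.0 to 399 CPM in the other second-set libraries, and to 513 to 2136 CPM in first-set volar libraries, against 47.5 to 495 CPM in the other first-set libraries. Not all of these markers went that way. FOXI1 had no count in second-set flank libraries, and KRT8 and FOXI1 had none in first-set volar libraries, while each had counts in every other group. The 7 matched hair shaft and root sheath markers summed to 26.9 to 31.4 CPM in second-set flank, against 621 to 16890 CPM in the others, and to 2.31 to 11.4 CPM in first-set volar, against 309 to 13410 CPM. The 7 matched Schwann cell markers summed to 46.7 to 69.0 CPM in second-set flank, against 137 to 315 CPM, and to 75.9 to 110 CPM in first-set volar, against 122 to 256 CPM. The 9 matched immune markers summed to 59.0 to 90.2 CPM in second-set flank, against 188 to 312 CPM, and to 68.8 to 157 CPM in first-set volar, against 142 to 331 CPM. Sums of sebaceous gland, smooth muscle, adipocyte, endothelium and melanocyte markers overlapped those of the other sites in at least 1 set. The part of these shifts in the results on the proteoglycans was not tested.

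In the fit with libraries scaled on the fibroblast markers DCN and OGN were lower, and BGN, FMOD and ASPN higher, in flank minus dorsal of the second set and volar minus flank of the first. In flank minus dorsal of the second set DCN was -1.04 ± 0.35 (adjusted p = 0.0102), OGN -2.07 ± 0.41 (0.000106), LUM 0.80 ± 0.37 (0.0495), BGN 2.13 ± 0.40 (4.69e-05), FMOD 2.11 ± 0.41 (7.18e-05), ASPN 2.61 ± 0.37 (2.24e-06) and PRELP 1.22 ± 0.71 (0.118) by edgeR. In volar minus flank of the first set DCN was -0.98 ± 0.29 (adjusted p = 0.00521), OGN -1.23 ± 0.32 (0.00237), LUM -0.30 ± 0.30 (0.371), BGN 2.64 ± 0.33 (5.54e-06), FMOD 2.79 ± 0.34 (4.65e-06), ASPN 1.14 ± 0.29 (0.00173) and PRELP 1.68 ± 0.58 (0.0149) by edgeR. The scaling raised the median of all genes by 2.84 and by 1.41 in these 2 comparisons, and 83.9% and 71.1% of all genes then passed. Against those medians of 2.76 and 1.35, DCN, OGN, LUM and ASPN lay below the median gene in both sets, and BGN, FMOD and PRELP lay above it in the first set and below it in the second. FMOD in snout minus flank of the first set was 3.43 ± 0.35 and BGN 2.76 ± 0.33, beside a median of 0.79 and 40.3% of all genes passing.

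**Figure D3:**
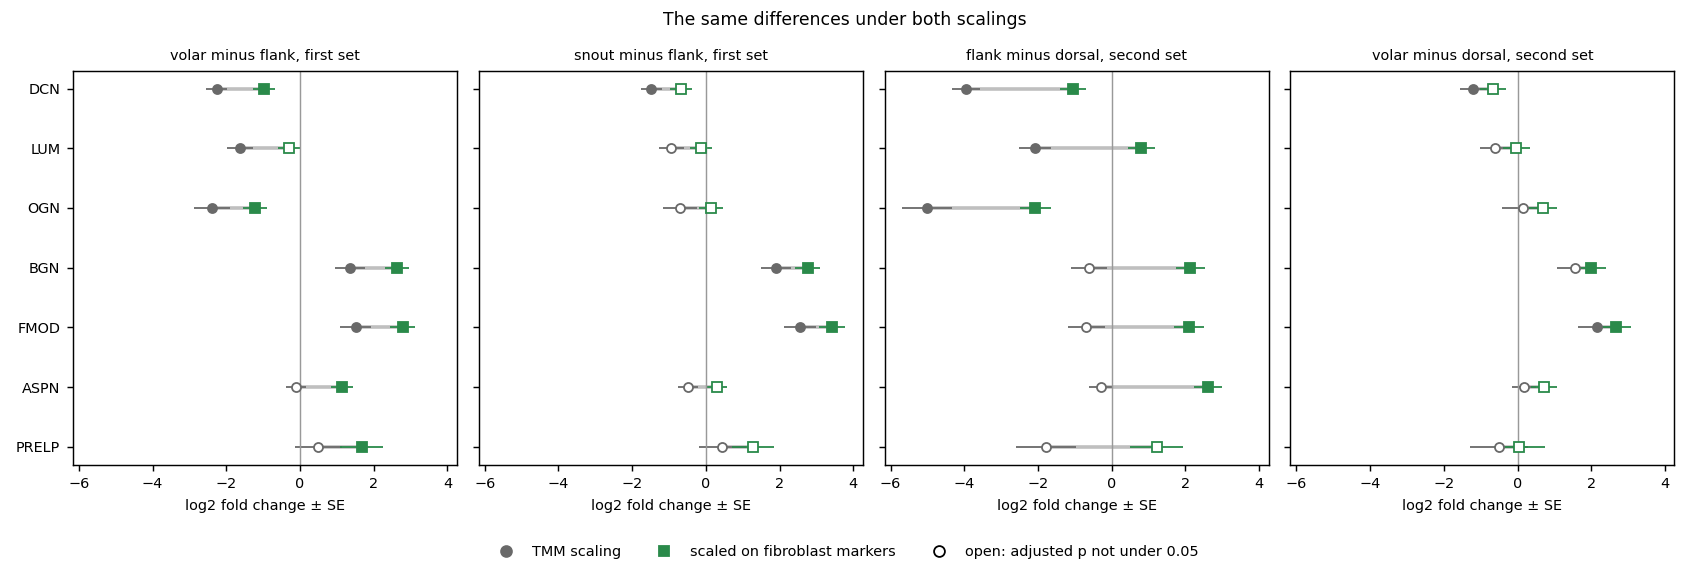
Log2 fold change ± standard error of each member in 4 comparisons, with TMM scaling as grey circles and scaling on 11 fibroblast markers as green squares; open symbols did not pass at an adjusted p of 0.05. The gap between the symbols is widest in flank minus dorsal of the second set, where LUM stands at 0.80 in place of -2.09 and ASPN at 2.61 in place of -0.28.

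Because a scaling factor cancels in a ratio of 2 genes of 1 library, the members' counts were also divided by each other, a comparison chosen after seeing the data. Such a ratio says nothing of which gene is more abundant, since it is not per length, but its change between sites needs no scaling. The ratio of FMOD to DCN counts was 0.185 and 0.0911 in second-set flank, 0.145 and 0.148 in volar, 0.0340 and 0.0510 in snout, and 0.0134 and 0.0158 in dorsal libraries (5-month pig first). In the first set it was 0.212, 0.127 and 0.0793 in volar, 0.214, 0.140 and 0.168 in snout, 0.0344, 0.0313 and 0.0371 in dorsal, and 0.00794, 0.00783 and 0.0134 in flank libraries (4-, 7- and 8-month pigs). Dorsal and flank libraries of the first set did not overlap each other or the other sites.

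The log2 ratio of BGN to DCN was lowest in second-set dorsal and first-set flank libraries, with means of -3.25 in flank, -3.72 in volar, -4.72 in snout and -6.43 in dorsal libraries of the second set. The first-set means were -3.19 in volar, -3.33 in snout, -5.09 in dorsal and -6.80 in flank libraries. The spread among sites was tested by exact permutation of the sites within pigs, in 18 tests (9 ratios in 2 sets) with Benjamini-Hochberg adjustment. In the first set the ratios of all 6 other members to DCN passed. In both sets these ratios share DCN, which itself differed among sites, so they are not 6 separate results. ASPN and PRELP themselves did not pass for any site under TMM scaling. No share of all genes over DCN was computed to set beside them. FMOD, ASPN and PRELP to DCN gave an exact p of 0.00174 (adjusted 0.0104), the smallest that 3 pigs allow. BGN to DCN gave an exact p of 0.00521 (adjusted 0.0234), OGN to DCN 0.0122 (adjusted 0.0365) and LUM to DCN 0.0191 (adjusted 0.0491). In the second set the smallest exact p that 2 pigs allow was 0.0417, reached by ASPN, BGN, LUM, OGN and PRELP to DCN (adjusted 0.0536 each), while FMOD to DCN gave 0.0833 (adjusted 0.100). BGN to FMOD did not differ beyond the spread among pigs in the second set (exact p = 0.208) or the first (exact p = 0.302). FMOD to PRELP, which does not hold DCN, also passed in the first set (exact p = 0.0104, adjusted 0.0365). It did not pass in the second (exact p = 0.25, adjusted 0.265).

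The ratio of OGN to ASPN, a pair from 1 gene cluster, was 0.0528 and 0.0557 in second-set flank libraries, against 1.09 to 1.62 in the other second-set libraries. In first-set volar libraries it was 0.381, 0.138 and 0.437, against 1.05 to 2.90 in the other first-set libraries. In neither set did these groups overlap. The exact permutation p was 0.0417 in the second set and 0.0399 in the first (adjusted 0.0536 each).

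**Figure D4:**
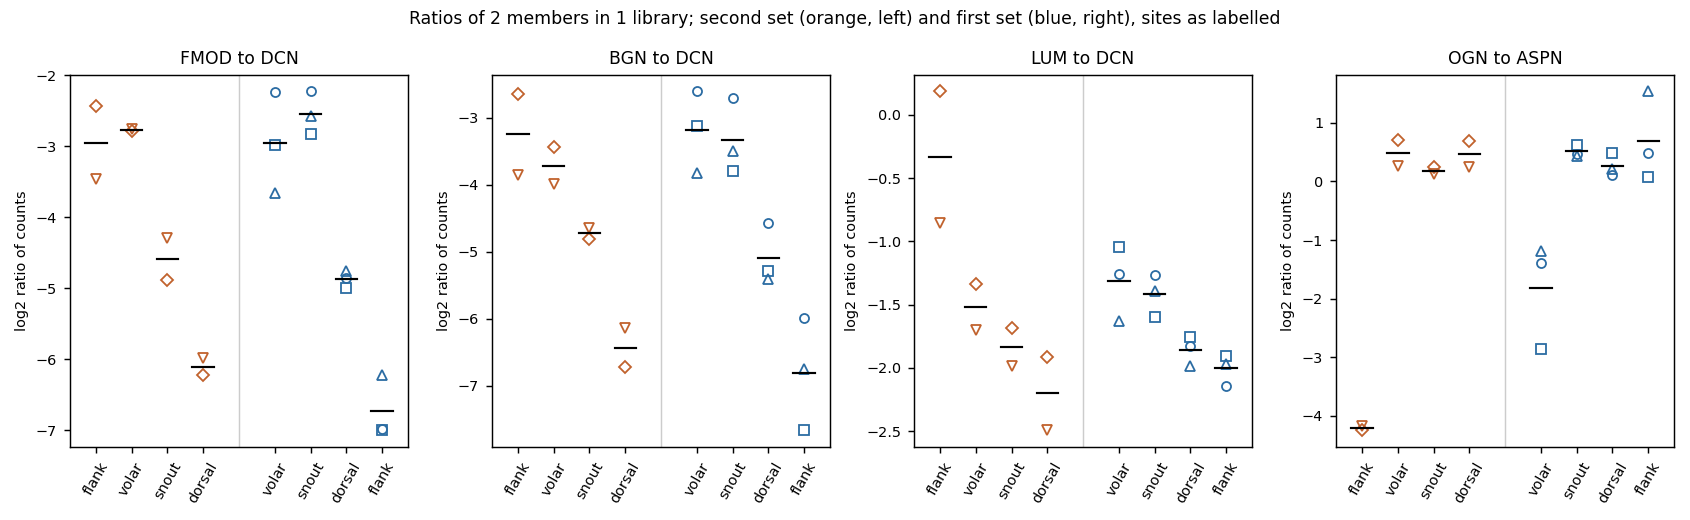
Log2 ratio of the counts of 2 members in each library (vertical axis) by labelled site, with the second set in orange on the left and the first set in blue on the right, marker shapes for pigs and bars for means. FMOD to DCN and BGN to DCN lie at -6.10 and -6.43 in second-set dorsal and at -6.73 and -6.80 in first-set flank libraries, and OGN to ASPN lies at -4.21 in second-set flank and -1.81 in first-set volar libraries.

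Most of these genes sit in clusters. In the pig assembly Sscrofa11.1, used here for gene order only, DCN, LUM and KERA lie next to each other, OGN, OMD, ASPN and ECM2 form another run, FMOD and PRELP lie side by side, and BGN stands apart. Of the neighbours among the members, DCN and LUM were the most alike in both sets. Over the 8 second-set libraries and the 12 first-set libraries, DCN and LUM had a Pearson r of log2 CPM of 0.903 and 0.961, OGN and ASPN 0.729 and 0.305, and FMOD and PRELP 0.312 and 0.328. Across clusters, DCN and OGN had 0.945 and 0.832, and BGN and FMOD 0.953 and 0.893. BGN had 0.502 and -0.535 with DCN. These values describe libraries that share sites, pigs and scaling, and carry no test.

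The genes whose log2 CPM was most like that of a member over the 12 first-set libraries, among genes of at least 10 CPM, were listed with the r over the 8 second-set libraries. For DCN they were SWAP70 (0.981, and 0.982 in the second set), RAB43 (0.971 and 0.985) and ECM2 (0.967 and 0.959). For OGN they were FGL2 (0.968 and 0.975), MXRA8 (0.965 and 0.977) and NDN (0.965 and 0.993), and for LUM GOLM2 (0.994 and 0.973), LGALS1 (0.977 and 0.952) and HSD3B7 (0.970 and 0.883). BGN was most like TNC, which encodes tenascin C (0.941 and 0.819), FNDC1 (0.939 and 0.621) and PKNOX2 (0.921 and 0.363), and FMOD most like RAC3 (0.949 and 0.790), ARHGAP35 (0.932 and 0.288) and TUSC3 (0.916 and 0.797). For ASPN and PRELP the highest first-set values, of GGT5 (0.912) and PIAS3 (0.937), stood at 0.375 and -0.630 in the second set.

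Of 9 other small leucine-rich genes tested, 5 were lower and none higher in flank minus dorsal of the second set, with a median log2 fold change of -1.07 beside -0.07 for all genes. The same counts, 5 lower and none higher, held in volar minus flank of the first set, with a median of -1.57 beside -0.06. OMD, which encodes osteomodulin of bone, was at -5.54 ± 0.58 in that second-set comparison and -3.42 ± 0.42 in the first-set one. KERA, which encodes the keratan sulfate proteoglycan keratocan of the cornea, was at -4.58 ± 0.67 and -1.81 ± 0.48, and ECM2 at -2.88 ± 0.45 and -2.00 ± 0.36. Scaled on fibroblast markers, OMD stood at -2.72 and -2.21, KERA at -1.66 and -0.56, and ECM2 at 0.02 and -0.71. The list then gave 5 higher and 2 lower (median 1.75 beside 2.76 for all genes) in the second-set comparison and 1 higher and 2 lower (median -0.36 beside 1.35) in the first-set one. Of all genes 24.2% and 17.3% were lower and 20.9% and 18.2% higher in these 2 comparisons under TMM scaling. Under the fibroblast scaling 83.9% and 71.1% passed. OMD and ECM2 lie beside ASPN in the genome, which itself did not pass in either comparison under TMM scaling. In snout minus flank of the first set 2 were higher and 2 lower, beside 9.88% and 6.81% of all genes. The 2 higher were CHAD, the cartilage protein chondroadherin, at 2.37 ± 0.46 and NYX at 2.77 ± 0.60.

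Under TMM scaling genes of the collagens to which these proteoglycans bind were lower in the same comparisons. Of 13 fibrillar and fibril-associated collagen genes 11 were lower and none higher in flank minus dorsal of the second set (median -2.91), and 8 lower and none higher in volar minus flank of the first (median -1.36). Scaled on fibroblast markers, 5 were higher and 4 lower (median -0.01) and 3 higher and 3 lower (median -0.07). Both medians lay below those of all genes under that scaling, 2.76 and 1.35. Of all genes 24.2% and 17.3% were lower and 20.9% and 18.2% higher in the 2 comparisons under TMM scaling. Under the fibroblast scaling 83.9% and 71.1% passed. Counts of the processing genes below stand beside the same shares. COL1A2 was at -5.21 ± 0.68 and -2.91 ± 0.50, COL1A1 at -5.09 ± 0.75 and -2.70 ± 0.55, and COL3A1 at -4.18 ± 0.59 and -2.17 ± 0.44 in these comparisons. With the fibroblast scaling they stood at -2.28 and -1.68, -2.18 and -1.38, and -1.26 and -0.94. Of 16 genes that process or crosslink collagen 12 and 9 were lower and none higher, against 2 and 0 lower and 9 and 6 higher under the fibroblast scaling. Among them were LOXL4, a lysyl oxidase (-2.96 ± 0.28 and -2.12 ± 0.22), and PCOLCE, an enhancer of procollagen cleavage (-4.72 ± 0.45 and -1.68 ± 0.32), which stood at -0.15 and -0.64, and at -1.80 and -0.37, under that scaling. In volar minus dorsal of the second set and snout minus flank of the first, in which FMOD was higher, COL1A1 was lower (-2.75 ± 0.67 and -1.97 ± 0.53), as under the fibroblast scaling (-2.28 and -1.13). COL1A2 (-2.30 ± 0.60 and -2.19 ± 0.48) and COL3A1 (-1.88 ± 0.54 and -2.18 ± 0.44) were also lower under TMM scaling. COL11A1, however, was higher in snout minus flank of the first set (2.48 ± 0.59).

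Among genes that build the sulfated chains, the 21 tested for chondroitin and dermatan sulfate gave 1 higher and 11 lower in flank minus dorsal of the second set and 2 higher and 5 lower in volar minus flank of the first, but 19 and 15 higher and none lower under scaling on fibroblast markers. Of all genes 20.9% were higher and 24.2% lower in the second-set comparison and 18.2% higher and 17.3% lower in the first-set one. The first-set counts lie near these shares. Of all genes 83.9% and 71.1% passed under the fibroblast scaling, where the median of all genes was 2.76 and 1.35. The counts of 19 and 15 higher lie near those shares. DSE, the epimerase that turns chondroitin into dermatan sulfate, was at -1.62 ± 0.22 and -0.93 ± 0.18, UST, a sulfotransferase of these chains, at -2.11 ± 0.40 and -2.12 ± 0.32, and CHPF, a chain-extending factor, at -1.85 ± 0.30 and -1.10 ± 0.24. Scaled in that way, DSE stood at 1.28 and 0.43, UST at 0.66 and -0.59, and CHPF at 1.08 and 0.34. Of 7 genes for keratan sulfate 1 was higher and 3 lower in each of the 2 comparisons, against 6 and 3 higher and none lower under that scaling. These counts stand beside the same shares and medians of all genes. CHST2, a sulfotransferase, was at -2.49 ± 0.45 and -1.36 ± 0.35, and B3GNT2, a chain-extending enzyme, at 1.54 ± 0.23 and 0.66 ± 0.18. CHST2 then stood at 0.39 and 0.01 and B3GNT2 at 4.32 and 2.08.

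Proteases that cut these proteoglycans gave 1 higher and 7 lower of 10 in both comparisons, but 5 higher and none lower in the second-set one and 2 higher and 1 lower in the first-set one under scaling on fibroblast markers. MMP13, a collagenase, was the 1 that was higher, at 5.63 ± 0.81 in flank minus dorsal of the second set and 5.73 ± 0.65 in volar minus flank of the first. ADAMTS5, an aggrecanase, was at -3.45 ± 0.46 and -2.28 ± 0.35, MMP2 at -3.09 ± 0.41 and -1.64 ± 0.32, and MMP14 at -1.59 ± 0.29 and -1.31 ± 0.24. Under the fibroblast scaling MMP13 stood at 8.30 and 7.03, ADAMTS5 at -0.49 and -0.93, MMP2 at -0.18 and -0.32, and MMP14 at 1.36 and 0.06. Of 15 ligands and receptors, 6 were higher and 4 lower in the second-set comparison and 6 higher and 3 lower in the first-set one, and 14 and 12 higher and none lower under the fibroblast scaling. TGFB1, a growth factor bound by decorin, was at 1.58 ± 0.30 and 1.36 ± 0.24, IGF1R at 1.12 ± 0.22 and 0.97 ± 0.18, CD44 at 0.81 ± 0.17 and 0.82 ± 0.14, and CD14, a co-receptor of Toll-like receptors, at -1.83 ± 0.32 and -1.13 ± 0.25 (1.05 and 0.25 under the fibroblast scaling). Of 15 other matrix proteoglycans 2 were higher and 10 lower in the second-set comparison and 2 higher and 4 lower in the first-set one, with GPC3, a glypican, at -2.12 ± 0.37 and -1.09 ± 0.29. Under the fibroblast scaling 10 were higher and 1 lower, and 9 higher and none lower, with GPC3 at 0.82 and 0.27. These counts stand beside the same shares of all genes, 20.9% higher and 24.2% lower in the second-set comparison, 18.2% higher and 17.3% lower in the first-set one, and 83.9% and 71.1% passing under the fibroblast scaling. The first-set counts of other matrix proteoglycans lie near them, as do the counts of ligands and receptors under the fibroblast scaling. Under that scaling the median of all genes was 2.76 in the second-set comparison and 1.35 in the first-set one.

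Tendon and cartilage markers were read beside BGN and FMOD. The 13 matched markers summed to 1236 to 1666 CPM in second-set volar and 127 to 147 CPM in second-set dorsal libraries, and to 886 to 1377 CPM in first-set snout and 78.8 to 130 CPM in first-set flank libraries, with none at 0 in these groups. In second-set flank libraries, where TNMD had no count, they summed to 742 to 1680 CPM, and in first-set volar libraries, where MATN1 had no count, to 1164 to 3185 CPM. Of the 13, 5 were higher and none lower in volar minus dorsal of the second set, beside 6.53% of all genes higher. In snout minus flank of the first set 8 were higher and none lower, beside 9.88% of all genes higher. Under the fibroblast scaling 6 and 9 were higher and none lower, where 4.42% and 40.3% of all genes passed. The part of these markers in the results on BGN and FMOD was not tested. Skeletal muscle markers summed to 5442 and 8713 CPM in the second-set volar libraries and to 11150 CPM in the 7-month snout library, against 39.9 and 41.3 CPM in the other first-set snout libraries. FMOD stood at 271 CPM in that 7-month snout library and at 228 CPM in each of the other two, and BGN at 140 CPM against 163 and 120 CPM.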

How the data were processed

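Per the labels' protocols, 4 mm skin biopsies went into RNAlater, RNA was extracted with Qiagen's kit for fibrous tissue, and libraries were TruSeq stranded mRNA. The table the authors deposited holds estimated counts per gene for 20 libraries. Salmon is the tool that the submitters' processing notes name, while version, build and annotation were not given in the sources used here. Among these deposited estimated counts, 42.2% were not whole (tolerance 0.000000001) and were rounded. Estimated counts share reads between similar sequences, so they depend on the annotation.

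Of 19280 gene rows 14821 had a symbol. Genes with too few counts were left out with edgeR's filterByExpr (count minimum 10, total minimum 15), which kept 15735. Library totals of 34077861 to 66906489 were scaled by TMM (factors 0.57 to 1.291). 1 quasi-likelihood model (edgeR 4.0.16, R 4.3.3, robust, 12 residual degrees of freedom) held 8 groups of labelled site by library-number set, with no covariate, and p-values were Benjamini-Hochberg adjusted over all 15735 genes at 0.05. Log2 CPM for correlations used a pseudocount of 0.5. Alternatives used limma 3.58.1 and DESeq2 1.42.0, other scalings, filters, fits within each set, the pig as a block, and removals of libraries and pigs. The pig block is given because the labels put 1 library of each site in the same pig: deviations from group means had a median r of 0.306 (0.114 to 0.434) between libraries of a pig in the second set and 0.211 (-0.005 to 0.433) in the first.

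The 7 members and the pathway and marker lists were chosen with earlier results of these data known. All members were named in every comparison; from each other pathway list at most 4 genes past an adjusted p of 0.05 with the smallest p were named, and for likeness the 3 genes with the highest Pearson r over the first-set libraries among genes of at least 10 CPM. Ratios of members and removals of whole first-set pigs were chosen after seeing the data. Sequences were not used here.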

Additional observations from a re-analysis of the deposited data

How the results depend on the processing

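Of 29 called comparisons of members, 4 kept their direction and their side of the threshold under every alternative and every removal of 1 library that gave a value. All 4 were of the second set: DCN and OGN in flank minus dorsal, and OGN in flank minus snout and flank minus volar. Whole pigs were left out of the first set only, so no second-set call was tried without a second-set pig. No first-set call could be kept, since the fit of all 20 libraries as labelled gives values for first-set comparisons only. In that fit 0% of all genes passed. DCN and OGN in volar minus flank and BGN and FMOD in snout minus flank were lost in that fit alone. The 5 members with a difference among sites in the first set became 3 without the 8-month pig. The 13 calls between first-set sites became 0 when all 20 libraries were taken as labelled (9 at an unadjusted p under 0.05, edgeR). The 0 calls of a difference between the sets became 4 under scaling on fibroblast markers, 10 with DESeq2 and 6 without the 7-month pig. The 2 calls of second set against first became 1 with limma-voom and 0 without the 4-month or without the 8-month pig. The cause of these changes was not tested. Removals of 1 library left 4 to 5 members called for any second-set site and 5 for any first-set site, 10 to 17 second-set and 11 to 15 first-set calls between sites, 0 to 9 differences between the sets and 0 to 4 calls of second set against first; where a second-set group was left with 1 library, that library was assumed to vary like the other groups.

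With the pig as a replicate block, 6 members passed for any site in the second set and 5 in the first, 16 and 14 comparisons of sites passed, and 1 difference between the sets passed. The block, and fits within each set, give no value for second set against first, since no pig is in both, and fits within each set give none for differences between the sets. Beside the blocked values given above for LUM, BGN and PRELP, the block changed no other call among the comparisons for which it gives a value.

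Scaling on fibroblast markers reversed 6 called differences. In the second set these were LUM in flank minus dorsal (0.80), flank minus snout (0.94) and flank minus volar (0.83), and BGN in flank minus snout (0.96) and flank minus volar (0.14), and between the sets DCN in second-set flank minus first-set volar (0.42). For any site, 4 members passed in the second set and 5 in the first under that scaling, with ASPN in place of LUM in the first and in place of DCN and LUM in the second. Under the other alternatives run, no called difference changed its direction. The 2 libraries per site in the second set limit its precision, and PRELP rested on 31 to 511 counts a library.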
